A study of Homo sapiens with 18 samples.

Results

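The cytosolic ribosome is built from a small subunit, which reads the mRNA, and a large subunit, which joins amino acids into protein. Each particle is assembled from ribosomal RNA and a single copy of each protein, apart from the stalk proteins, and the mRNAs of these proteins are among the most abundant of growing cells, cancer cells included. Many of their mRNAs start with a run of pyrimidines, the 5′ terminal oligopyrimidine (TOP) motif, through which mTOR signalling and LARP1 control their translation and stability. Rows of the deposited count table were taken as members when their Ensembl identifier matched a protein-coding gene with a symbol of RPL or RPS followed by a digit, or RPSA, RPLP0, RPLP1 or RPLP2, leaving out the RPS6K kinase genes, RPS27L and pseudogenes. Of 35044 genes in the table, 86 were members. They comprised 77 core genes (43 of the large subunit, 3 of its stalk and 31 of the small subunit), 6 paralogs (RPL3L, RPL7L1, RPL22L1, RPL26L1, RPL36AL and RPL39L) and 3 others. The others were RPS19BP1, which encodes a protein that binds RPS19 and is not itself part of the ribosome, and the read-through genes RPL17-C18orf32 and RPS10-NUDT3. All 77 core genes and 84 of the 86 members passed the filter on low counts, and the read-through genes, with at most 3 counts in any library, did not.

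The RNA-seq libraries came from HCC1937-EV, described as the BRCA1-mutated breast cancer line HCC1937 with an empty vector, and from HCC1937-OE-BRCA1, described as HCC1937 overexpressing wild-type BRCA1. Both were untreated (0 h) or exposed for 12 h or 24 h to 10 µmol/L of olaparib, an inhibitor of PARP1 (PARPi), with 3 libraries in each of 6 groups. The labels name olaparib for 0 h libraries as well and call the genotype of HCC1937-EV WT, so the line and time were read from the titles. Nothing states that the 3 libraries of a group were separate cultures, so p-values measure only the spread between these libraries, which may be technical.

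The libraries labelled HCC1937-EV did not show the marker pattern of the other line. In HCC1937-OE-BRCA1 the epithelial genes EPCAM, CDH1, KRT5 and KRT17 lay at 252 to 352, 329.5 to 488, 1062 to 1742 and 1229 to 2312 CPM (counts relative to the size of the library, after TMM scaling by edgeR). In HCC1937-EV the highest values were 0.0617, 1.198, 0.124 and 5.97 CPM, with EPCAM at 0 counts in 8 of 9 libraries, where 3 counts correspond to at most 0.204 CPM. Vimentin (VIM) was at 0.636 to 1.90 CPM in HCC1937-OE-BRCA1 and 227 to 335 CPM in HCC1937-EV. VIM was chosen after its values were seen. KRT7, KRT8 and KRT18 were above 440 CPM in both lines. Of the markers of other cell types, PTPRC (leukocytes) was at most 2.22 CPM, and COL1A2, DCN and LUM (fibroblasts) at most 0.373 CPM, in either line, while CD14 reached 85.9 CPM in HCC1937-OE-BRCA1 and COL1A1 reached 143.5 CPM in HCC1937-EV. Summed over a list, 4 leukocyte markers were at 1.15 to 2.59 CPM in HCC1937-EV and rose in value from 33.7 to 48.6 CPM without treatment to 71.7 to 86.8 CPM at 24 h in HCC1937-OE-BRCA1. The 6 fibroblast markers were at 97.2 to 153 CPM and 6.96 to 12.4 CPM, and the 3 endothelial markers at 1.11 to 2.89 CPM and 17.3 to 27.0 CPM. The 8 epithelial markers were at 2889 to 3795 CPM in HCC1937-EV, and in HCC1937-OE-BRCA1 at 9542 to 12420 CPM without treatment and 7355 to 8171 CPM at 24 h. The part of other cells in the results was not tested. BRCA1 itself was at 90.9 to 126 CPM in HCC1937-EV and 114 to 169 CPM in HCC1937-OE-BRCA1. Each difference between the lines given below therefore compares the libraries labelled with these names, in which BRCA1 and any other difference of the cells cannot be told apart. Total counts per library were 15081973 to 17571922, and the replicates of a group differed by more than counting noise.

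The sequences around the annotated transcription starts of 62 of the 77 core genes were found in RefSeq's promoter table for GRCh38.p14. A C at the start followed by pyrimidines, 5 or more in all, stood in 42 of the 62 (67.7%) and in 4.04% of 27305 promoters. The letters CTTTC between 10 bases before and 15 after the start occurred in 41.9% of the 62 and 3.52% of all promoters. On either strand, between 100 bases before and 50 after the start, CCGGAAG, a form of the GABPA site, occurred in 24.2% against 7.93%, and AAGATGG, a form of the YY1 site, in 11.3% against 3.62%. The following stretches, from 25 bases before the start to 20 after it, are shown because these genes are among those with the largest changes described below, and capitals mark the pyrimidine run that begins at the start.
RPL26 (chr17:8383174-8383218, minus strand): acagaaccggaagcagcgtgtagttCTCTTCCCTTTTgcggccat
RPL39 (chrX:119791611-119791655, minus strand): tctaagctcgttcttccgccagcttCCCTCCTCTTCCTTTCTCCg
RPS21 (chr20:62387078-62387122, plus strand): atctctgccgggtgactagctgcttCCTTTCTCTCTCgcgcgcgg
RPS3 (chr11:75399493-75399537, plus strand): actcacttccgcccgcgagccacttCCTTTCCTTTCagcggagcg
RPS28 (chr19:8321471-8321515, plus strand): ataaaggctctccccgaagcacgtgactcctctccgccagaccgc
RPS29 (chr14:49598691-49598735, minus strand): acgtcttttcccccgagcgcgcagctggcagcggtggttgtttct
RPL14 (chr3:40457314-40457358, plus strand): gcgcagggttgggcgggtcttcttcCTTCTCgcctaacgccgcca
RPS24 (chr10:78033838-78033882, plus strand): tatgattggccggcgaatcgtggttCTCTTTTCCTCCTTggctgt
RPSA (chr3:39406695-39406739, plus strand): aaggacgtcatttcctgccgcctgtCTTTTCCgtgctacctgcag
The runs of RPL26, RPL39, RPS21 and RPS3 were 12, 19, 12 and 11 bases long, and those of RPL14, RPS24 and RPSA were 6, 14 and 7. RPS28 and RPS29 had no such run at the annotated start, but in RPS28 a pyrimidine run began at the next base.

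Transcripts of the 77 core genes took between 5.11% and 5.41% of all counts in untreated HCC1937-EV. The share was 5.95 to 7.38% at 12 h and 6.34 to 7.65% at 24 h, while in HCC1937-OE-BRCA1 it was 3.53 to 5.04% without treatment, 3.62 to 4.34% at 12 h and 3.07 to 3.49% at 24 h. The group means were 5.28 ± 0.157%, 6.50 ± 0.769% and 7.03 ± 0.658% (SD, n = 3) in HCC1937-EV and 4.21 ± 0.770%, 3.92 ± 0.379% and 3.33 ± 0.230% in HCC1937-OE-BRCA1. The libraries of 0 h and 24 h did not overlap in either line. With 3 libraries against 3, no exact permutation test can give a p below 0.1, so single values of this kind carry no test here. The share of counts from mitochondrial DNA moved the other way, from a mean of 7.70% to 6.29% and 5.82% in HCC1937-EV and from 5.33% to 5.56% and 5.97% in HCC1937-OE-BRCA1. Without the genes of mitochondrial DNA the core share was 5.72%, 6.94% and 7.46% in HCC1937-EV and 4.44%, 4.15% and 3.54% in HCC1937-OE-BRCA1, so the order of the groups was the same. In bulk samples fewer cells of a type and less RNA per cell cannot be told apart.

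**Figure D1:**
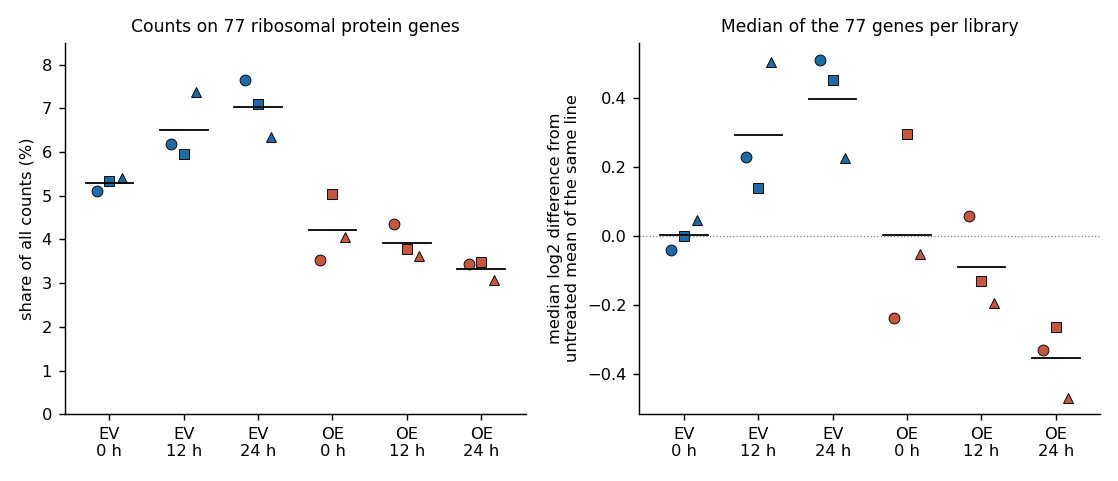
Share of all counts on the 77 core ribosomal protein genes (left, percent) and the median over these genes of the log2 difference from the untreated mean of the same line (right), for each library. EV is HCC1937-EV and OE is HCC1937-OE-BRCA1, the symbols are replicates 1 (circle), 2 (square) and 3 (triangle), and the bars are group means. The HCC1937-EV libraries at 24 h lie between 6.34 and 7.65%, above all untreated ones, and the HCC1937-OE-BRCA1 libraries at 24 h between 3.07 and 3.49%, below all untreated ones.

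The members differed widely in level. Compared per kilobase of exon (RPKM), the highest in untreated HCC1937-EV were RPS2 at 986 ± 42.3 RPKM (SD, n = 3), RPL13A at 819 ± 29.5, RPL19 at 690.0 ± 21.2, RPL8 at 666 ± 73.4 and RPS12 at 518 ± 25.8 RPKM. Among the lowest were RPS29 at 7.89 ± 0.515 RPKM, RPS9 at 5.28 ± 1.998, RPS10 at 2.08 ± 0.252 and RPL36A at 1.93 ± 0.305 RPKM, and the median of the 77 was 165 RPKM. In untreated HCC1937-OE-BRCA1 the median was 139 RPKM and the highest member was RPL8. Since the exons of all annotated transcripts count in this length, the order rests in part on the annotation. With the median length of protein-coding transcripts, an alternative added after the data were seen, RPS2 remained first, RPS12 moved from rank 5 to rank 50, and RPS29 to rank 66.

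Ribosomal protein genes have many processed pseudogenes with nearly the same sequence, and 701 annotated ones belong to 73 of the core genes. Pseudogenes took 86.7% of the summed counts of the RPL36A family in HCC1937-EV and 85.5% in HCC1937-OE-BRCA1. For RPS10 the shares were 70.0% and 74.5%, for RPL17 55.1% and 54.9%, and for RPS18 41.1% and 43.1%. Levels of these low members are therefore uncertain, since how reads that match several copies were counted is not given in the sources used here. RPS18 and RPL7A varied widely among replicates, from 8.39 to 80.4 CPM for RPS18 at 24 h in HCC1937-EV. RPS10 and RPL17 also overlap the read-through genes named above.

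After 24 h of PARPi treatment in HCC1937-EV, 37 of the 77 core genes were called higher (edgeR's quasi-likelihood test, called at an adjusted p under 0.05 over 18335 genes tested). That is 48.1%, where 8.62% of all genes tested were called higher, 5.12% lower and 13.7% either way, and no core gene was called lower. The median log2 fold change was 0.37 against 0 for all genes, and 73 members had a positive value. All treated libraries lay above all untreated ones for 51 of the 77 (66.2%, and 20.8% of all genes). The reverse held for 0 of the 77 (19% of all genes). The count of calls moved with single libraries. It was 3, 23 and 16 without untreated replicate 1, 2 or 3, and 7, 12 and 40 without replicate 1, 2 or 3 at 24 h, whereas the median stayed between 0.36 and 0.48. Of the large subunit 23 of 43 were called higher (median 0.44), of the stalk 3 of 3 (median 0.69) and of the small subunit 11 of 31 (median 0.33).

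The largest rise among called core genes was that of RPL26 (ENSG00000161970.15), a large subunit protein near the exit of the peptide tunnel, on chromosome 17 from 8377516 to 8383250 of GRCh38. It was at 19.4, 21.0 and 22.5 CPM without treatment and 67.2, 52.1 and 45.1 CPM at 24 h. The log2 fold change was 1.39 (SE 0.28, edgeR adjusted p = 0.00544). RPL39 (ENSG00000198918.8, chromosome X from 119786504 to 119791643), a very small protein that lines the tunnel, went from 217, 270.4 and 285 CPM to 601, 529 and 442 CPM, a log2 fold change of 1.02 (SE 0.26, edgeR adjusted p = 0.015). In both genes every treated library lay above every untreated one. RPS28 (ENSG00000233927.5, chromosome 19 from 8321158 to 8323340), a small subunit protein at the mRNA exit channel, had 90.3, 88.2 and 92.8 CPM without treatment and 214, 232 and 191 CPM at 24 h, a log2 fold change of 1.23 (SE 0.23, edgeR adjusted p = 0.00322). With 1 library left out at a time, RPL26 and RPS28 were called in 6 of 6 fits and RPL39 in 3 of 6. When counts of the pseudogenes of RPS28 were added, its change was 0.71 (edgeR adjusted p = 0.0253).

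The stalk, made of RPLP0, RPLP1 and RPLP2, recruits the elongation factors that drive the ribosome along the mRNA. RPLP1 rose from 794, 879 and 874 CPM to 1819.5, 1623 and 1405 CPM, with no overlap, by 0.93 (SE 0.20, edgeR adjusted p = 0.00755) on the log2 scale. The log2 fold changes were 0.69 (SE 0.19, edgeR adjusted p = 0.025) for RPLP2 and 0.47 (SE 0.13, edgeR adjusted p = 0.0237) for RPLP0. Of the proteins known from Diamond-Blackfan anaemia, an inherited failure of red cell formation, RPS19, its most often mutated gene, rose from 753, 743 and 733 CPM to 1221, 1120.2 and 919 CPM (0.55, edgeR adjusted p = 0.0249). RPL5 and RPL11, which with 5S rRNA can bind MDM2, were not called, at 0.14 (edgeR adjusted p = 0.413) and 0.37 (edgeR adjusted p = 0.055). RPS26, at the mRNA exit, was at 598, 531 and 558 CPM without treatment and 563, 525 and 478 CPM at 24 h, and its log2 fold change of −0.11 was not called (edgeR adjusted p = 0.602). When single libraries were left out, RPLP1 was called in 5 of 6 fits, RPLP2 in 1 of 6, RPLP0 in 1 of 6 and RPS19 in 1 of 6. Over the 18 genes listed for this disease, 9 were called higher and 0 lower, with a median of 0.46. The shares called higher were 48.1% of the core genes and 8.62% of all genes, and 5.12% of all genes were called lower.

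**Figure D2:**
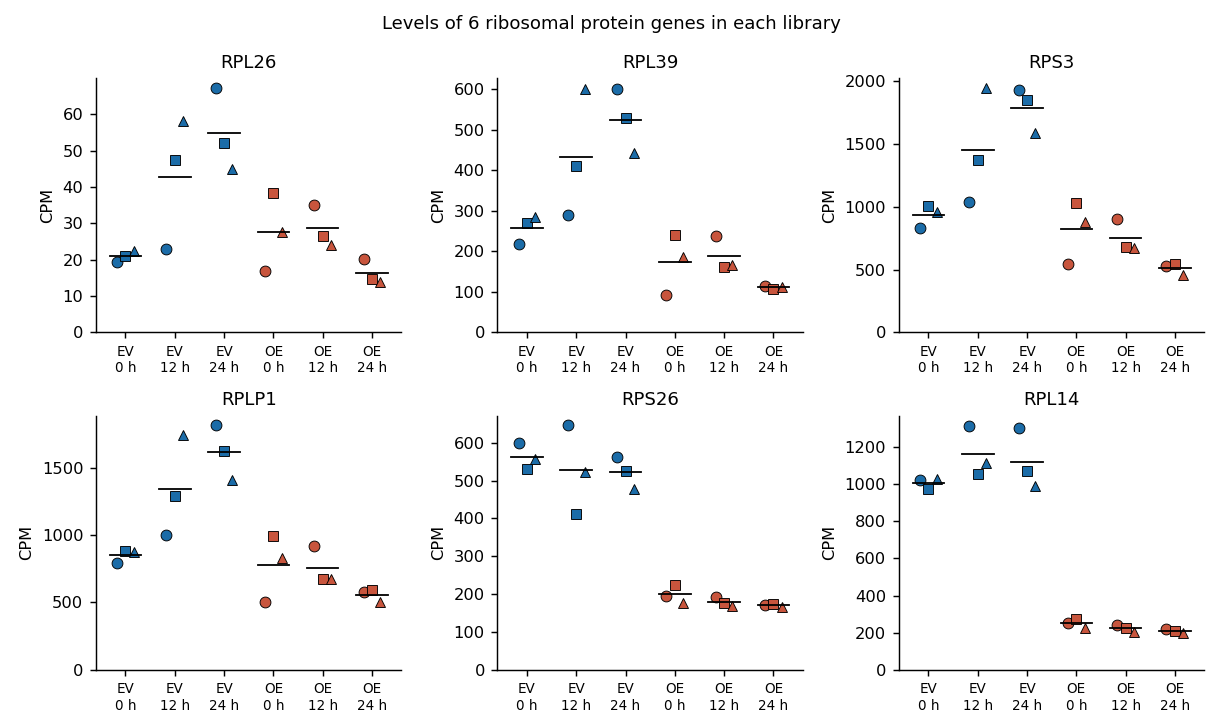
CPM of 6 core genes in each library, with replicates 1 (circle), 2 (square) and 3 (triangle) and group means (bars), on axes that start at 0. RPL26, RPL39, RPS3 and RPLP1 lie higher at 24 h than at 0 h in every HCC1937-EV (EV) library, whereas RPS26 overlaps between these times, and RPL14 and RPS26 are lower in every HCC1937-OE-BRCA1 (OE) library than in any HCC1937-EV library.

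At 12 h in HCC1937-EV no core gene was called by edgeR, where 0.0273% of all genes were called higher, 0.0164% lower and 0.0436% either way. Of the 77, 74 had a positive log2 fold change, 38 had an unadjusted p under 0.05, and 3 were called by DESeq2. An unadjusted p under 0.05 was found for 2963 of all 18335 genes, and the share of all genes called by DESeq2 is not given here. The median was 0.29, and all treated libraries lay above all untreated ones for 43 (55.8%, and 10.1% of all genes) and below them for 0 (9.65% of all genes). RPL26 had 22.9, 47.4 and 58.3 CPM, a log2 fold change of 1.03 (SE 0.28, edgeR adjusted p = 0.151). RPS21, a small subunit protein, had 158, 171 and 176 CPM at 0 h and 209.7, 281 and 409 CPM at 12 h, a log2 fold change of 0.83 (SE 0.23, edgeR adjusted p = 0.151). In both genes replicate 1 at 12 h was the lowest and replicate 3 the highest, and the 12 h libraries still lay above the untreated ones.

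Libraries of a line were not alike in GC trend or in length trend. Across genes, the GC content and the difference from the line's mean had a Spearman's rho of −0.61 to −0.24 in untreated HCC1937-EV and 0.30 to 0.64 at 24 h, and in HCC1937-OE-BRCA1 it was −0.63 to 0.60 without treatment and −0.49 to −0.33 at 24 h. With a correction for GC content and length, 35 core genes were called in HCC1937-EV at 24 h and the median was 0.30. The share of all genes called with this correction is not given here, for this or any other comparison.

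After 24 h in HCC1937-OE-BRCA1, 12 of the 77 core genes were called lower and none higher by edgeR. That is 15.6%, where 3.55% of all genes were called lower, 4.71% higher and 8.26% either way. The calls depended on the untreated libraries, among which replicate 2 held the highest level of 67 of the 77 core genes over all 9 HCC1937-OE-BRCA1 libraries. Without it no core gene was called by edgeR and the median was −0.21, and without untreated replicate 1 there were 49 calls and −0.50. Without untreated replicate 3, or replicate 1, 2 or 3 at 24 h, the counts were 8, 1, 3 and 1. Log2 fold changes were negative for 75 of 77, with a median of −0.38 against 0.02 for all genes. Of the 77, 53 had an unadjusted p under 0.05, as did 4336 of all 18335 genes. Treated libraries lay below all untreated ones for 31 (40.3%, and 9.87% of all genes) and above them for 0 (14% of all genes). Of the large subunit 9 of 43 were called lower, of the stalk 1 of 3 and of the small subunit 2 of 31, with medians of −0.38, −0.47 and −0.37. With the correction for GC content and length 51 were called lower, with a median of −0.41. The calls thus rose while the median moved little, and no share of all genes stands beside the 51.

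RPS29 (ENSG00000213741.11, chromosome 14 from 49570984 to 49599164), a small zinc-binding protein of the small subunit, had the largest fall among called genes. It was at 57.0, 102 and 92.4 CPM without treatment and 44.1, 47.4 and 42.4 CPM at 24 h, with no overlap, and the log2 fold change was −0.91 (SE 0.23, edgeR adjusted p = 0.0189). RPS3 (ENSG00000149273.15, chromosome 11 from 75399486 to 75422280) lies at the mRNA entry channel and also acts in DNA repair. It had 544, 1032 and 882 CPM and 531, 547 and 455 CPM, a log2 fold change of −0.68 (SE 0.20, edgeR adjusted p = 0.0407), and the highest treated library lay just above the lowest untreated one. RPL37, a zinc-binding protein of the large subunit, had 341, 573 and 473 CPM and 314, 314 and 272 CPM, a log2 fold change of −0.62 (SE 0.16, edgeR adjusted p = 0.0226). In the fits that each left out 1 library, RPS29 was called in 1 of 6 fits, RPS3 in 1 of 6, RPL37 in 1 of 6, RPLP0 in 1 of 6 and RPL5 in 2 of 6. RPLP0 fell by 0.43 on the log2 scale (edgeR adjusted p = 0.0459) and RPL5 by 0.38 (edgeR adjusted p = 0.0336). RPLP1 (−0.47), RPLP2 (−0.49), RPL11 (−0.28), RPS19 (−0.37) and RPS26 (−0.22) were not called. Of the 18 Diamond-Blackfan genes 3 were called lower and 0 higher, and all had negative log2 fold changes, with a median of −0.38. The shares called lower were 15.6% of the core genes and 3.55% of all genes, and 4.71% of all genes were called higher.

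At 12 h in HCC1937-OE-BRCA1 no core gene was called by edgeR or by DESeq2, where edgeR called 1.7% of all genes higher, 0.605% lower and 2.31% either way. An unadjusted p under 0.05 was found for 6 of the 77 core genes and for 2137 of all 18335 genes. Log2 fold changes were negative for 62, with a median of −0.12 that became 0.072 without untreated replicate 2. All treated libraries lay above all untreated ones for 1 core gene, RPL7A (9.2% of all genes), and below them for 1, RPS10 (5.86% of all genes). RPL7A, of the large subunit, had 125, 83.2 and 49.1 CPM at 0 h and 178, 185 and 143 CPM at 12 h, a log2 fold change of 0.97 (SE 0.37, edgeR adjusted p = 0.258). RPS10 had 4.25, 3.51 and 3.21 CPM and 3.02, 2.60 and 2.03 CPM, a log2 fold change of −0.52 (SE 0.21, edgeR adjusted p = 0.306).

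The 24 h changes of the lines were compared by the interaction term of the same model, as the change in HCC1937-OE-BRCA1 minus that in HCC1937-EV. This difference was called below 0 for 53 of the 77 core genes (68.8%) and above 0 for 0, where 11.2% of all genes were called below 0, 8.16% above 0 and 19.4% either way. The median difference was −0.76, against 0.05 for all genes. With 1 library left out at a time between 41 and 58 were called, and 41 core genes were called in all 12 such fits. With the correction for GC content and length 61 were called, with a median of −0.71, again without a share of all genes beside them. By group, 31 of 43 large subunit genes, 3 of 3 stalk genes and 19 of 31 small subunit genes were called. Of the 77, 72 had a positive log2 fold change in HCC1937-EV and a negative one in HCC1937-OE-BRCA1, and 8 (RPL13A, RPL22, RPL30, RPL35A, RPL37, RPS3, RPS29 and RPLP0) were called in both lines. When single libraries were left out, the call in HCC1937-OE-BRCA1 held in 3 of 6 fits for RPL13A and in 1 of 6 for the others, and the call in HCC1937-EV held in 1 of 6 for RPL37, RPS29 and RPLP0 and in 2 to 5 of 6 for the others. The shares of all genes with such opposite signs, called in both lines or called in all 12 fits were not worked out. Over 12224 genes with at least 1 CPM in both untreated lines, the 24 h changes of the lines had a Spearman's rho of −0.41.

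The largest difference was that of RPL26, at −2.15 (SE 0.40, edgeR adjusted p = 0.00184). RPL26 went from 20.9 ± 1.57 CPM (SD, n = 3) to 54.8 ± 11.3 CPM in HCC1937-EV, and in HCC1937-OE-BRCA1 it was at 16.7, 38.4 and 27.6 CPM without treatment and 20.1, 14.7 and 13.8 CPM at 24 h. RPL39 differed by −1.66 (SE 0.37, edgeR adjusted p = 0.00473) and RPS21 by −1.64 (SE 0.33, edgeR adjusted p = 0.00287). RPS21 had 377, 342 and 280.1 CPM in HCC1937-EV and 172, 148 and 134 CPM in HCC1937-OE-BRCA1 at 24 h, against 158, 171 and 176 CPM and 144, 333 and 238 CPM without treatment. The stalk genes RPLP1, RPLP2 and RPLP0 differed by −1.40, −1.18 and −0.89 (edgeR adjusted p = 0.00287, 0.00648 and 0.00317). RPS19, RPL11 and RPL5 differed by −0.92, −0.64 and −0.52 (edgeR adjusted p = 0.00706, 0.0158 and 0.0224), whereas RPS26 was not called at −0.11 (edgeR adjusted p = 0.723). In the fits that each left out 1 library, RPL11 was called in 9 of 12 fits and RPL5 in 7 of 12. Of the 18 Diamond-Blackfan genes 11 were called below 0, beside 68.8% of the core genes and 11.2% of all genes.

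**Figure D3:**
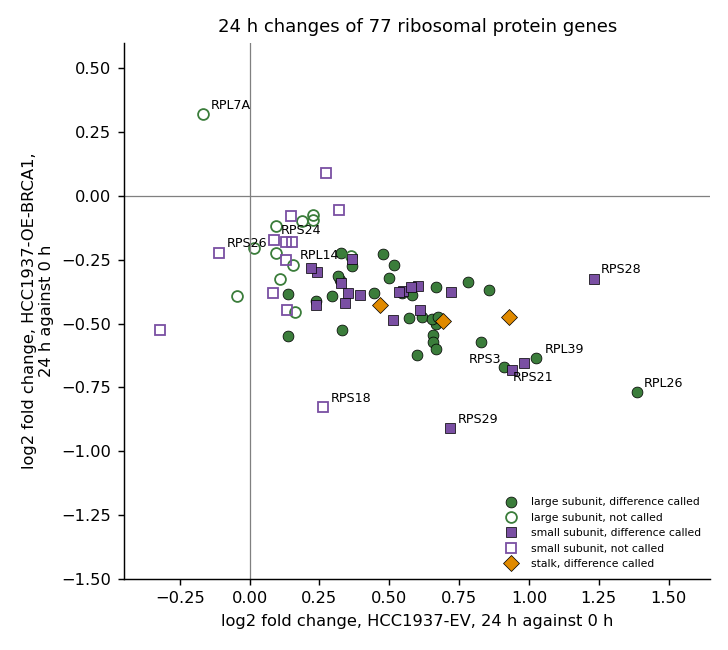
Log2 fold change at 24 h against 0 h of the 77 core genes in HCC1937-EV (x axis) and HCC1937-OE-BRCA1 (y axis), by subunit. Filled symbols are the 53 genes whose difference between the lines was called, and 72 of the 77 genes lie to the right of 0 and below 0.

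Across the 77 core genes, the log2 fold changes at 24 h of the lines, which come from separate libraries, had a Pearson's r of −0.55 and a Spearman's rho of −0.55. For the 65 members that reached 100 CPM in untreated HCC1937-EV these were −0.73 and −0.69, and over 12224 genes with at least 1 CPM in both untreated lines −0.37 and −0.41. Genes of one library share its depth and GC trend and are not independent replicates, so these are descriptions. Of the 42 core genes with the pyrimidine run, the median was 0.46 in HCC1937-EV and −0.38 in HCC1937-OE-BRCA1 at 24 h, and of the 20 without it 0.33 and −0.30. The run was scored only at the annotated start, so a gene with a run that begins just after it, such as RPS28, counts as without it.

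At 12 h no difference between the lines was called for a core gene by edgeR or DESeq2, where edgeR called 0.376% of all genes above 0, 0.142% below 0 and 0.518% either way. The median difference was −0.41, 73 of 77 were negative and 37 had an unadjusted p under 0.05, as did 2690 of all 18335 genes. The 2 largest were those of RPL7A at 1.19 (SE 0.52, edgeR adjusted p = 0.301) and RPL26 at −0.98 (SE 0.39, edgeR adjusted p = 0.262).

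Without treatment, 36 core genes were called lower in HCC1937-OE-BRCA1 than in HCC1937-EV and 10 higher by edgeR. Together these are 59.7% of the 77, where 72.7% of all genes were called either way, 33.3% lower and 39.4% higher. The lines did not overlap for 34 that were lower (44.2%, and 33.7% of all genes) and 9 that were higher (11.7%, and 38.7% of all genes). The median difference was −0.36, against 0.11 for all genes. RPL14 (ENSG00000188846.14, chromosome 3 from 40457292 to 40468587), of the large subunit, had 1022, 972 and 1026 CPM in HCC1937-EV and 252, 276 and 223 CPM in HCC1937-OE-BRCA1, a log2 difference of −2.01 (SE 0.11, edgeR adjusted p = 1.36e-12). RPS24 (ENSG00000138326.21, chromosome 10 from 78033732 to 78056813), of the small subunit, differed by −2.01 (SE 0.14, edgeR adjusted p = 4.74e-11), from 1041, 1059.6 and 1145 CPM to 293, 302 and 213 CPM. RPSA (ENSG00000168028.14, chromosome 3 from 39406689 to 39412542), a small subunit protein first described as a laminin receptor precursor, differed by −1.97 (SE 0.14, edgeR adjusted p = 4.74e-11), with 1697, 1733 and 1745 CPM and 345, 544 and 435 CPM. None of these genes overlapped between the lines.

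Of the higher genes, RPL8, on chromosome 8, had 1259.7, 1565 and 1486 CPM in HCC1937-EV and 2726, 5403 and 4163 CPM in HCC1937-OE-BRCA1, a log2 difference of 1.51 (SE 0.21, edgeR adjusted p = 1.94e-06). RPL30, also on chromosome 8, differed by 0.97 (SE 0.15, edgeR adjusted p = 5.17e-06). The stalk genes RPLP2 and RPLP0 were lower (−0.75 and −0.45, edgeR adjusted p = 0.00186 and 0.00428), and RPLP1 was not called (−0.13). RPS26 was lower by 1.50 (edgeR adjusted p = 1.03e-09), with 194, 225 and 178 CPM in HCC1937-OE-BRCA1. RPL5 was lower by 0.61 (edgeR adjusted p = 4.1e-05), and RPL11 (−0.01) and RPS19 (0.10) were not called.

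The line differences of members followed those of their neighbours on the chromosome. For 76 core genes with at least 10 other protein-coding genes within 5 Mb to either side, the member's log2 difference and the median of its neighbours had a Pearson's r of 0.74 and a Spearman's rho of 0.73, and 56 of 76 shared their sign. Neighbouring members share some of these genes, so the points are not independent. Around RPL14, 35 of 41 neighbours were lower in HCC1937-OE-BRCA1, with a median of −1.34, and around RPS24 32 of 33, with a median of −0.93. Around RPL27A on chromosome 11, 42 of 46 were lower, with a median of −1.49, beside −1.84 for RPL27A itself. Around RPL35A on chromosome 3, 2 of 33 were lower, with a median of 1.09, beside 0.73 for RPL35A. All 10789 protein-coding genes compared in this way had a median of −0.04.

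**Figure D4:**
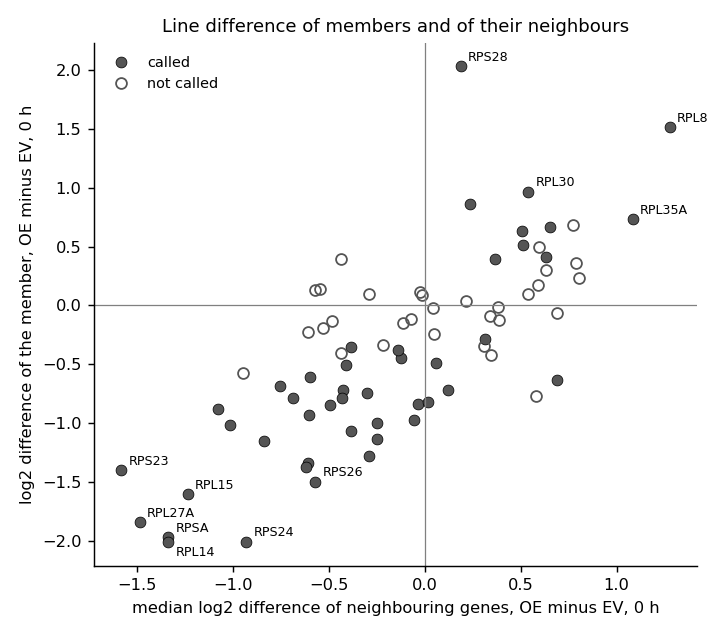
Log2 difference between untreated HCC1937-OE-BRCA1 (OE) and HCC1937-EV (EV) of each of 76 core genes (y axis) against the median of the protein-coding genes within 5 Mb (x axis). Filled symbols are called genes, 56 of 76 points share the sign of their neighbours, and RPS28 lies highest at 2.03.

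RPS28 showed the largest rise between the lines, at 2.03 (SE 0.23, edgeR adjusted p = 9.76e-08), with 90.3, 88.2 and 92.8 CPM in untreated HCC1937-EV and 246, 457 and 404 CPM in HCC1937-OE-BRCA1. Its processed pseudogene RPS28P7 (ENSG00000227097.5, chromosome 11 from 82689559.0 to 82689768.0), named here after its values were seen, went the other way, with 400.5, 357 and 369 CPM and 4.19, 8.56 and 7.12 CPM. Pseudogenes held 71.3 to 81.6% of the family's counts in the HCC1937-EV libraries and 1.40 to 2.56% in the HCC1937-OE-BRCA1 libraries. With the counts of the family summed, the log2 difference was −0.30 (edgeR adjusted p = 0.179). Whether reads of RPS28 transcripts were assigned to the pseudogene, or the pseudogene was itself transcribed, was not tested.

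**Figure D5:**
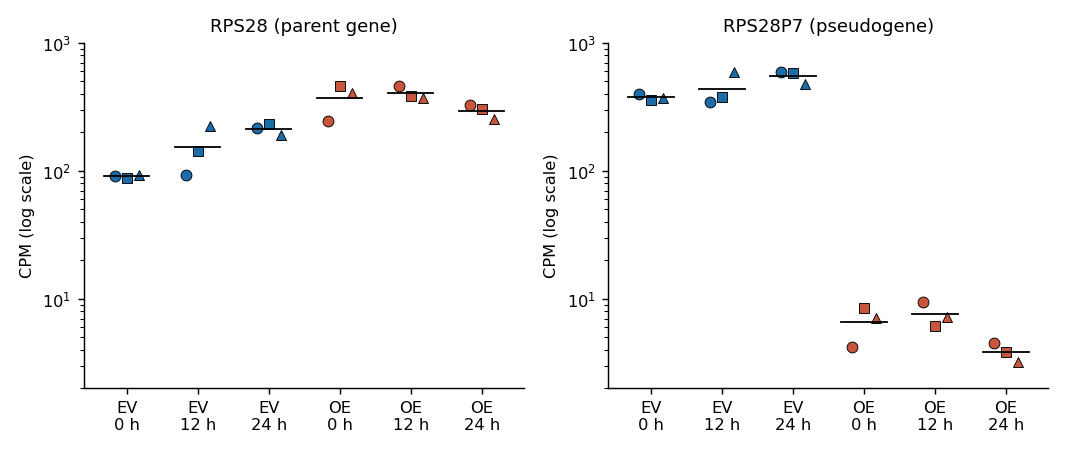
CPM on a logarithmic axis of RPS28 (left) and its pseudogene RPS28P7 (right) in each library, with replicates 1 (circle), 2 (square) and 3 (triangle) and group means (bars). RPS28 is lower in untreated HCC1937-EV (EV) than in untreated HCC1937-OE-BRCA1 (OE), and RPS28P7 is above 340 CPM in each HCC1937-EV library and below 10 CPM in each HCC1937-OE-BRCA1 library.

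Of 123 tested pseudogenes of core genes, the 24 h comparison called 20 higher and 0 lower in HCC1937-EV, where 8.62% and 5.12% of all genes were called. In HCC1937-OE-BRCA1 it called 3 higher and 8 lower, where 4.71% and 3.55% of all genes were called. The medians of the pseudogenes were 0.34 in HCC1937-EV and −0.37 in HCC1937-OE-BRCA1. The largest called change in HCC1937-EV was that of RPL35P1, which had 14, 13 and 14 counts without treatment and 81, 93 and 79 at 24 h (2.55, edgeR adjusted p = 0.0103). RPS3P3 had 5, 4 and 7 and 29, 19 and 20 counts (edgeR adjusted p = 0.0118), and RPL37AP1 12, 7 and 8 and 38, 40 and 32 (1.95, edgeR adjusted p = 0.0129), with no count of RPL37AP1 in HCC1937-OE-BRCA1. In HCC1937-OE-BRCA1, RPL7P50 had 0, 2 and 0 counts without treatment and 4, 7 and 5 at 24 h, RPL21P28 had 40, 27 and 16 and 3, 7 and 9, and RPS2P32 had 1, 3 and 4 and 11, 9 and 8. Each of these was called, but rests on few counts.

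The paralogs replace a core protein in some tissues or stages. RPL39L, the paralog of RPL39 known from male germ cells, rose in HCC1937-EV from 16.5, 15.3 and 14.6 CPM to 37.8, 29.8 and 22.1 CPM (0.95, edgeR adjusted p = 0.0141). RPL36AL rose by 0.67 (edgeR adjusted p = 0.00978) and RPL22L1, the paralog of RPL22, by 0.54 (edgeR adjusted p = 0.0193). With 1 library left out at a time they were called in 3 of 6, 4 of 6 and 2 of 6 fits. RPL22 itself rose in HCC1937-EV by 0.67 and fell in HCC1937-OE-BRCA1 by 0.50 (edgeR adjusted p = 0.0102 and 0.0461, called in 4 of 6 and 1 of 6 fits). In HCC1937-OE-BRCA1 no paralog was called at 24 h, with log2 fold changes of −0.60 for RPL39L, −0.25 for RPL36AL and −0.37 for RPL22L1. The differences between the lines were called for these 3 (−1.55, −0.92 and −0.91, edgeR adjusted p = 0.00384, 0.00661 and 0.00569).

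RPL26L1 and RPL7L1, which acts in large subunit assembly, were not called in any treatment comparison. RPL26L1 was at 48.6 ± 1.39 CPM and 48.7 ± 4.25 CPM in HCC1937-EV at 0 h and 24 h (SD, n = 3), beside the rise of RPL26. RPL7L1 was at 322 ± 4.84 CPM and 306 ± 11.3 CPM. RPL3L, the heart and skeletal muscle form, had 2 to 15 counts per library and was not called either. RPS19BP1 was not called in HCC1937-EV at 24 h (0.36, edgeR adjusted p = 0.0948) and fell in HCC1937-OE-BRCA1 from 61.8, 96.8 and 69.1 CPM to 49.7, 49.6 and 44.4 CPM (−0.66, edgeR adjusted p = 0.00657). Without treatment the lines differed for RPL39L by 1.25 and for RPL36AL by 0.38 (edgeR adjusted p = 7.46e-05 and 0.0305), and for RPL22L1 by −0.82 and RPL7L1 by −0.28 (edgeR adjusted p = 3.91e-05 and 0.00335).

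Some ribosome components carry other symbols. FAU, whose product is a ubiquitin-like protein fused to RPS30, rose in HCC1937-EV from 154, 154 and 152 CPM to 273, 242 and 218 CPM (0.67, edgeR adjusted p = 0.0139, called in 3 of 6 fits with 1 library left out). The scaffold protein gene RACK1 was not called at 0.15 (edgeR adjusted p = 0.381). In HCC1937-OE-BRCA1 neither was called at 24 h (−0.40 and −0.26), and the difference between the lines was called for FAU (−1.07, edgeR adjusted p = 0.00454) but not for RACK1 (−0.41, edgeR adjusted p = 0.0635).

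Of 21 tested genes for elongation and initiation factors and other proteins of the TOP class, the 24 h comparison in HCC1937-EV called 1 higher and 2 lower (8.62% and 5.12% of all genes), with a median of −0.00. EEF1D, a subunit of the elongation factor that recharges EEF1A1, rose by 0.89 (edgeR adjusted p = 0.014), and the nucleolar gene NPM1 and the poly(A)-binding gene PABPC1 fell by 0.48 and 0.41 (edgeR adjusted p = 0.0402 and 0.0152). When single libraries were left out, EEF1D was called in 4 of 6 fits, NPM1 in 0 and PABPC1 in 4. Of 15 genes of this list with a promoter entry 13 had the pyrimidine run. In HCC1937-OE-BRCA1 at 24 h 1 was called, the elongation factor EEF1A1, which fell by 0.33 (edgeR adjusted p = 0.0326, called in 2 of 6 fits). The median of the list was −0.13, and 3.55% of all genes were called lower and 4.71% higher.

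Of 71 genes of ribosome biogenesis, the 24 h comparison called 5 higher and 6 lower in HCC1937-EV (median −0.10), where 8.62% and 5.12% of all genes were called. In HCC1937-OE-BRCA1 1 was called higher and 14 lower (median −0.18), where 4.71% and 3.55% of all genes were called. In HCC1937-EV, NHP2 of the box H/ACA particles and EIF6, which keeps large subunits free, rose by 0.68 and 0.58 (edgeR adjusted p = 0.00799 and 0.0306). UTP20 and HEATR1, factors of small subunit processing, fell by 0.77 and 0.57 (edgeR adjusted p = 0.00245 and 0.0134). In HCC1937-OE-BRCA1, EFL1, which releases EIF6, rose by 0.53, and RRP9 and BOP1 fell by 0.69 and 0.59 (edgeR adjusted p = 0.00236, 0.0159 and 0.0411). In the fits that each left out 1 library, NHP2, EIF6, UTP20 and HEATR1 were called in 5, 2, 6 and 3 of 6 fits, and EFL1, RRP9 and BOP1 in 6, 1 and 1.

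Of 17 genes of growth control and of factors that bind ribosomal protein promoters, 2 were called higher (RPS6KB2 by 0.51 and RHEB by 0.34) and 1 lower (GABPA, by 0.55) at 24 h in HCC1937-EV, with edgeR adjusted p = 0.0117, 0.042 and 0.0468. Over all genes 8.62% were called higher and 5.12% lower, and with 1 library left out at a time RPS6KB2 was called in 2 of 6 fits, RHEB in 1 and GABPA in 1. In HCC1937-OE-BRCA1 1 was called lower, ZNF692, by 0.33 (edgeR adjusted p = 0.0433, called in 1 of 6 fits). Of all genes 3.55% were called lower and 4.71% higher in that comparison. MYC, a transcription factor for ribosomal genes, had 595, 598 and 619.6 CPM in untreated HCC1937-EV and 102, 121 and 121 CPM in untreated HCC1937-OE-BRCA1, a log2 difference of −2.40 (SE 0.09, edgeR adjusted p = 6.9e-16). Within the lines it was called only at 12 h in HCC1937-OE-BRCA1 (0.32, edgeR adjusted p = 0.0426, called in 2 of 6 fits), among the 4 treatment comparisons. MTOR and LARP1 were called in none of the 4, with log2 fold changes from −0.28 to 0.11 for MTOR and from −0.26 to −0.06 for LARP1.

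As lists outside the ribosome, the 24 h comparison called 2 of 32 proteasome genes higher in HCC1937-EV (PSMA7 by 0.62 and PSMB5 by 0.49) and 3 in HCC1937-OE-BRCA1, led by PSMD1 (0.43) and PSMC2 (0.33). None was called lower by edgeR, and the medians were 0.09 and 0.06. Over all genes, 8.62% were called higher and 5.12% lower in HCC1937-EV, and 4.71% and 3.55% in HCC1937-OE-BRCA1. With 1 library left out at a time, PSMA7 and PSMB5 were each called in 1 of 6 fits, PSMD1 in 6 and PSMC2 in 2. Of 20 tRNA synthetase genes 1 was called higher (QARS1, 0.48) and 4 lower in HCC1937-EV, among them GARS1 (−0.37), with QARS1 called in 6 of 6 fits and GARS1 in 2. In HCC1937-OE-BRCA1 1 was called, WARS1, the interferon-inducible tryptophan enzyme, with 409, 407 and 371 CPM and 766, 774 and 748 CPM (0.95, edgeR adjusted p = 1.37e-07).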

How the data were processed

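RNA was extracted with TRIzol and libraries were made with a NEBNext Ultra II kit per the labels. The authors deposited raw read counts per gene, whole numbers without normalization, for 18 libraries, and the submitters' processing notes name HISAT2, featureCounts, DESeq2 and GRCh38, without versions. Strandedness, annotation and the treatment of reads with several matches are not given in the sources used here. The joint table and the 18 tables for single libraries held the same counts. The samples were grouped by line and time in the titles.

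Identifiers without version were matched to symbols (34966 of 35044) and to GENCODE 29 for position, type, length and GC content. Genes that passed filterByExpr (18335) were tested with edgeR 4.0.16 in R 4.3.3, by the quasi-likelihood test with TMM sizes and one mean for each of 6 groups over 18 libraries, with Benjamini-Hochberg adjustment and calls at an adjusted p under 0.05. The 7 comparisons were 12 h and 24 h against 0 h in each line, the untreated lines, and the difference of the line effects at 12 h and 24 h. Scripts were tested on simulated data. RPKM with the median length of protein-coding transcripts were added after the data were seen. CPM are means ± SD of 3 libraries. RPKM divide them by exonic length.

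Members and gene lists were chosen with earlier results of these data known. Named were, per comparison, up to 3 called core genes with the largest change in each direction (or the 2 largest changes where none was called), the 5 highest and 5 lowest core genes by RPKM, all tested paralogs and other members, the stalk genes, FAU, RACK1, RPL5, RPL11, RPS19, RPS26, MYC, MTOR and LARP1, up to 2 called genes per direction of each other list, and up to 3 pseudogenes. A few genes that this rule names are not reported here. Alternatives were DESeq2 (1.42.0) size factors and Wald test, TMM without ribosomal genes, no filter, and an absolute log2 fold change over 0.5. Further ones were a minimum of 10 counts per library, a replicate block, a GC and length offset (regression splines in R), and summed pseudogene counts. The last were the compared groups alone and each library left out. Intervals and floors cover counting error only.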

Additional observations from a re-analysis of the deposited data

Results flagged for a closer look

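The olaparib effect at 24 h differed between the lines by the interaction term of the edgeR model, as HCC1937-OE-BRCA1 minus HCC1937-EV on the log2 scale, for 53 core ribosomal protein genes. Among the named members, the differences were −2.15 for RPL26, −1.66 for RPL39, −1.64 for RPS21, −1.40 for RPLP1, −1.18 for RPLP2, −0.89 for RPLP0, −0.92 for RPS19, −0.64 for RPL11 and −0.52 for RPL5. They were −1.55 for RPL39L, −0.92 for RPL36AL, −0.91 for RPL22L1, −1.02 for RPS19BP1 and −1.07 for FAU.

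Of the other lists, the same test called EEF1D (−1.16), EIF3G (−0.80), PPAN (−1.14), BOP1 (−1.06), RPS6KB2 (−0.71), EIF4EBP1 (−0.58), PSMA7 (−1.13), PSMB6 (−0.64), FARSA (−0.85) and QARS1 (−0.40) below 0. Above 0 were UTP20 (0.72), EFL1 (0.71), GABPA (0.82), PSMD1 (0.68), PSMA3 (0.52) and WARS1 (1.12). EIF4EBP1 turned to 0.11 with the GC and length correction. With 1 library left out at a time, EIF4EBP1 was called in 2 of 12 fits, QARS1 in 3, PSMB6 and PSMA3 in 4 each, GABPA in 5 and EEF1D in 11, and the other genes just named in all 12. For pseudogenes with few counts the fitted differences, which depend on the prior count, were −4.24 for RPL35P1, −3.22 for RPS3P3 and 3.05 for RPL7P50. Groups of 3 libraries are too small for a search for outlying libraries.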

How the results depend on the processing

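The difference of the lines at 24 h had 53 to 63 called core genes, the change at 24 h in HCC1937-EV 32 to 54 and the untreated difference 39 to 55 under every alternative other than leaving out a library, and medians kept their direction in all 7 comparisons under those alternatives. In HCC1937-EV at 12 h the calls went from 0 to 3 with DESeq2's Wald test and 29 without a filter on low counts. In HCC1937-OE-BRCA1 at 12 h they went from 0 to 2 without a filter and 1 with a replicate block and the GC and length correction. At 24 h in HCC1937-OE-BRCA1 the 12 calls became 27 with DESeq2's Wald test, 15 with its size factors, 56 without a filter, 51 with the correction, 49 with the block and the correction, 8 with an absolute log2 fold change over 0.5, 17 with 10 counts in every library, and 5 with the compared groups alone. For the difference at 12 h 24 were called without a filter and 1 with the correction, with or without the block. The shares of all genes called under these alternatives are not given here, and the cause of these shifts was not tested.

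Leaving out 1 library at a time gave 0 to 10 calls at 12 h and 3 to 40 at 24 h in HCC1937-EV, 0 at 12 h and 0 to 49 at 24 h in HCC1937-OE-BRCA1, 43 to 50 between the untreated lines, and 0 to 12 at 12 h and 41 to 58 at 24 h for the difference. The medians lay at 0.19 to 0.37, 0.36 to 0.48, −0.22 to 0.072, −0.50 to −0.21, −0.52 to −0.25, −0.51 to −0.25 and −0.87 to −0.61 in that order. The reversal at 12 h in HCC1937-OE-BRCA1 came without untreated replicate 2.

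Deviations of same-numbered libraries from their group means correlated between −0.23 and 0.15, and those of differently numbered libraries between −0.17 and 0.19. With 3 libraries a group, such values cannot show whether libraries of the same number shared a culture or run. The main fit did not pair them. With a replicate block 35 and 9 core genes were called at 24 h in HCC1937-EV and HCC1937-OE-BRCA1, 48 between the untreated lines, 54 for the difference at 24 h, and 0 in the other comparisons. Of named single genes, RPS28 turned to −0.30 between the untreated lines with pseudogene counts summed, and EIF4EBP1 to 0.11 in the difference at 24 h with the correction, with and without the block. Outside the fits with a library left out, 1867 single values kept their call, 44 lost it, 64 gained it, and 2 shares moved beyond the spread of replicates. With 1 library left out, 1325 single values kept their call, 219 lost it and 16 gained it.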
